A study of Mus musculus with 35 samples.

Results

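The 35 genes described here are the claudins and other tight junction proteins measured on the arrays. They were taken by symbol: every measured claudin (23 genes), the zonula occludens proteins Tjp1 and Tjp3, and Ocln, Marveld2, Marveld3, F11r, Jam2, Jam3, Cgn, Cgnl1, Pard3 and Pard6b. Each of the 35 was read by 1 probe set, out of 19937 genes in all. The 35 samples, each run on its own 1-colour array, were mouse mammary cells sorted from a pool of the 4th mammary glands of 5 mice. The parous mice were mated at 42 days of age, passed through pregnancy and 21 days allotted to lactation, and were sampled after a further 40 days for involution, in which the gland shrinks back once nursing ends. The nulliparous mice were age-matched virgin controls. Each history was sorted into 6 subpopulations, named by the labels as stromal cells, total epithelial cells, luminal CD24+High Sca1- and Sca1+ cells, and basal CD24+Low Sca1- cells that were CD49fLow or CD49fHigh. Every group held 3 samples, except the parous basal CD49f-high group, with 2 after 1 replicate was left out by the submitters for poor hybridization. The CD49f-high samples came from 2000 cells each and all others from 10000 cells. The labels call the samples biological replicates, so p-values refer to the spread between pools of mice. In the main fit that spread was 1 estimate per gene shared by all 35 samples, not that of the subpopulation compared. Whether same-numbered samples of different subpopulations came from the same pool is not stated. The main fit took all 35 samples as independent. If pools were shared, p-values of means over several subpopulations could be too small.

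Tight junctions are belts of contact near the apical edge of epithelial cells that limit what passes between neighbouring cells. Claudins are the membrane proteins that form the strands of the belt, some sealing it and some forming pores for ions. Occludin and the other MARVEL proteins run along the strands, junctional adhesion molecules lie beside them, and zonula occludens proteins, cingulins and the Par polarity proteins lie on the inner face and tie the belt to the cytoskeleton. In the mammary gland the luminal cells that line the ducts and alveoli carry the belt, which tightens when milk secretion starts. Basal cells, mostly contractile myoepithelium, lie outside them.

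Values are log2 expression and run over all probe sets between 1.74 and 13.28. Because probe sets differ in brightness, only values of the same gene are compared. A gene was called at an adjusted p under 0.05 in limma's moderated test with Benjamini-Hochberg adjustment over all 19937 genes, and n is 3 per group unless stated. Within groups, samples from 10000 cells correlated at 0.977 to 0.991 over all genes, and the CD49f-high samples at 0.963 to 0.978. The mean of 8 basal markers (Krt5, Krt14, Krt17, Acta2, Myh11, Cnn1, Oxtr and Trp63) was 10.18 to 10.85 in basal samples, against 6.04 to 7.49 in luminal samples. The mean of 4 luminal keratins (Krt7, Krt8, Krt18 and Krt19) was 8.08 to 9.86 in basal samples, against 10.97 to 11.81 in luminal samples. The 6 fibroblast markers (Col1a1, Col1a2, Col3a1, Pdgfra, Dcn and Lum) averaged 10.19 to 10.79 in stromal samples and 6.85 to 8.0 in total epithelial samples. In sorted pools, fewer cells of a type and less RNA per cell cannot be told apart.

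The members' levels followed the sorted subpopulations. The F test across the 6 subpopulations called 24 of the 35 members, against 52.7% of all genes. All 12 members that are not claudins were called, and 12 of the 23 claudins. Of the 35, 22 had their highest mean in a luminal subpopulation, 12 in the Sca1-positive cells and 10 in the Sca1-negative cells, while 6 were highest and 16 lowest in stromal cells. The spread between the highest and lowest subpopulation mean was over 1 log2 unit in 18 members, 8 of them claudins, among them Cldn4 at 3.42, Cldn7 at 3.37 and Marveld2 at 3.74. For Cldn8 (4.40), Ocln (3.76) and Marveld3 (1.49) the lowest mean, in stromal cells, was under 6.0, the median of all gene values. The same held for Cldn10 (2.64), lowest in CD49f-high cells, Jam2 (2.17), lowest in Sca1-positive cells, and Jam3 (1.29), lowest in Sca1-negative cells. Those spreads depend on values that cannot be told from background. The other end of the family was flat: 14 claudins spanned less than 0.5.

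**Figure D1:**
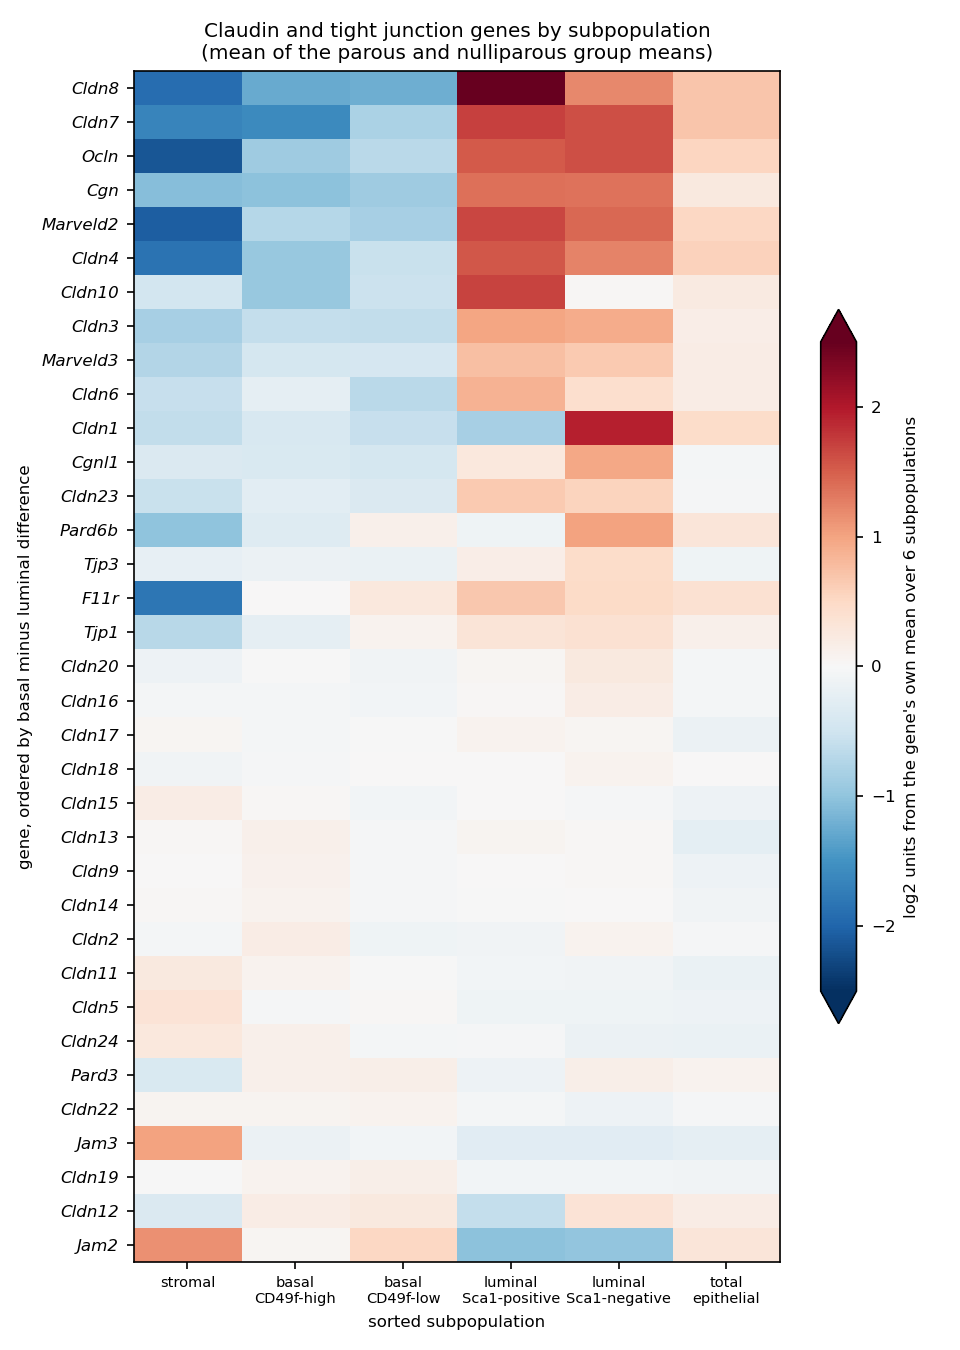
Heat map of the 35 members (rows, ordered by their basal minus luminal difference) in the 6 subpopulations (columns). Colour gives the subpopulation mean, averaged over both histories, minus the gene's own mean over the 6 subpopulations, in log2 units from -2.5 to 2.5. Genes low in basal and stromal cells and high in both luminal columns stand together, and Jam2 shows the opposite pattern.

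Of the claudins, 8 were dim in every group, with a highest group mean under that median. These were Cldn2, a cation pore of the kidney tubule and gut, Cldn9, Cldn13, Cldn15, Cldn16, Cldn17, Cldn18 and Cldn24. Their highest group means lay between 4.53 and 5.72 and their subpopulation means spanned 0.19 to 0.42, whereas 39.5% of all genes were dim by the same measure. An array value this low does not tell a weakly expressed gene from background. The 11 claudins that the F test did not call were 7 of these 8, all but Cldn16, together with Cldn14, Cldn19, Cldn20 and Cldn22.

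Several claudins and the occludin family stood lower in basal than in luminal cells. Of the 35 members, 18 fell and 2 rose in basal relative to luminal cells, where 19.5% of all genes fell and 15.5% rose, 35% in all. The median difference was -0.187 over the members and 0.004 over all genes. Those that fell were 9 claudins (Cldn1, Cldn3, Cldn4, Cldn6, Cldn7, Cldn8, Cldn10, Cldn16 and Cldn23) and 9 others (Ocln, Marveld2, Marveld3, Cgn, Cgnl1, F11r, Tjp1, Tjp3 and Pard6b). In Cldn3, Cldn4, Cldn7, Cldn8, Cldn23, Ocln, Marveld2, Marveld3 and Cgn all 11 basal samples lay below all 12 luminal samples, whatever the history. This separation was looked at for the members only, with no share of all genes beside it, so it is not read as particular to them.

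Cldn8 is a barrier-forming claudin of the distal kidney tubule and colon. Its lowest, median and highest values were 4.47, 4.81 and 6.27 over the basal samples, against 6.56, 8.38 and 9.55 over the luminal samples. No basal sample reached the lowest luminal one, and the log2 difference was -3.08 (SE 0.14, adjusted p = 1.03e-16). The basal median lies under the median of all gene values, so the size of that difference is less certain than its direction. Cldn7, a claudin of the gut lining that is also found along the lateral membrane, had 6.50, 7.70 and 8.38 in basal samples, against 9.93, 10.56 and 10.71 in luminal samples. The basal samples were again all lower, by 7.22-fold (log2 difference -2.85, SE 0.20, adjusted p = 8.9e-13).

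Cldn3 and Cldn4, both receptors of Clostridium perfringens enterotoxin, are neighbouring genes on chromosome 5 and fell together. Cldn4 had lowest, median and highest values of 7.99, 9.01 and 9.52 in basal samples, against 10.42, 11.04 and 11.62 in luminal samples. Cldn3 had 6.66, 7.07 and 7.60 in basal samples, against 8.43, 8.74 and 8.91 in luminal samples. The groups did not overlap for either gene, with log2 differences of -2.16 for Cldn4 (SE 0.20, adjusted p = 4.0e-10) and -1.56 for Cldn3 (SE 0.09, adjusted p = 5.0e-15).

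The sequences just upstream of Cldn3, Cldn4 and Cldn7 are shown because these luminal claudins fell together in basal cells, while Snai2, a repressor known to bind the E-box CAGGTG, was higher there by 4.14 (SE 0.16, adjusted p = 2.5e-18). Each line gives the 130 bases before the outermost annotated start in RefSeq's GRCm38.p6, 5′ to 3′ on the gene's strand, with any E-box (CAGGTG, or CACCTG on the other strand) in capitals. The stretches lie at chr5:134986084-134986213 on the plus strand for Cldn3, chr5:134946935-134947064 on the minus strand for Cldn4 and chr11:69964649-69964778 on the plus strand for Cldn7.
Cldn3: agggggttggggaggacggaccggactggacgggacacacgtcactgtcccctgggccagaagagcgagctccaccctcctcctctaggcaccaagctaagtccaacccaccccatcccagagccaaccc
Cldn4: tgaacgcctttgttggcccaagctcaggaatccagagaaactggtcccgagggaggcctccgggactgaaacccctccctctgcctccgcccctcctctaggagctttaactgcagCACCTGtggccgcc
Cldn7: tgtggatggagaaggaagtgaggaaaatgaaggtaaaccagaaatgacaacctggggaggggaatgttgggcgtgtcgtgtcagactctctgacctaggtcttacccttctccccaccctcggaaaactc
The Cldn4 stretch holds 1 E-box, whose first base lies 14 bases before the start, and those of Cldn3 and Cldn7 hold none. Over 250 bases upstream of any annotated start, 9 of the 28 members with a RefSeq window had an E-box (Cldn4, Cldn6, Cldn7, Cldn14, F11r, Ocln, Pard3, Pard6b and Tjp3), against 19.4% of 27025 genes. For Cldn7 these lie before an inner start. The GC-box GGGCGG or CCGCCC was in 18 of the 28, against 35.4% of genes, the TATA motif TATAAA or TTTATA in 3, against 14.3%, and the palindromic Grhl motif AACCGGTT in 0, against 0.137%. Such matches are letters in a window and show no binding. The shares are also not like for like, since a gene counts if any of its windows matches. The 28 members had 40 windows, and the 27025 genes, not limited to those on the array, had 32851.

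The MARVEL proteins followed the same order. Ocln, which encodes occludin, had lowest, median and highest values of 6.38, 6.89 and 8.32 in basal samples, against 9.13, 9.49 and 9.79 in luminal samples, a log2 difference of -2.36 (SE 0.23, adjusted p = 1.5e-09). Marveld2, which encodes tricellulin, found where the corners of neighbouring cells meet, and lies next to Ocln on chromosome 13, had 6.84, 7.57 and 8.23 in basal samples, against 9.33, 9.77 and 10.04 in luminal samples (log2 difference -2.32, SE 0.19, adjusted p = 3.5e-11). Marveld3 had 5.60, 5.99 and 6.26 in basal samples, against 6.72, 7.13 and 7.26 in luminal samples (log2 difference -1.12, SE 0.07, adjusted p = 5.8e-14). In all 3 genes the basal and luminal samples did not overlap.

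For the genes of the inner face of the junction, and for the adhesion molecule F11r beside the strands, basal and luminal levels differed by less in most cases. Cgn, which encodes the junctional adaptor cingulin, had 5.84, 6.49 and 6.99 in basal samples, against 8.42, 8.77 and 9.0 in luminal samples, with no overlap (log2 difference -2.32, SE 0.12, adjusted p = 1.2e-15). Its relative Cgnl1 fell by 1.04 on the log2 scale (SE 0.09). Differences were smaller for the scaffolds Tjp1 (-0.43, SE 0.06) and Tjp3 (-0.47, SE 0.05), the adhesion molecule F11r (-0.43, SE 0.12) and the polarity protein Pard6b (-0.54, SE 0.11), all called. Pard3, the partner of Pard6b in the Par complex, was not called (0.13, SE 0.07, adjusted p = 0.13).

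Jam2 and Cldn19 went the other way. Jam2, an adhesion molecule known from blood and lymph vessels, had lowest, median and highest values of 6.37, 7.18 and 8.0 in basal samples, against 5.17, 5.90 and 6.52 in luminal samples. The ranges overlapped at their edge, and the log2 difference was 1.29 (SE 0.14, adjusted p = 5.9e-09). Endothelial markers (8 genes, among them Pecam1, Cdh5 and Tek) averaged 5.24 to 6.72 in basal samples and 5.26 to 6.30 in luminal samples, and 1 of the 8 was called higher and 1 lower in basal cells. Cldn19, a claudin of the kidney, had 5.80, 6.14 and 6.48 in basal samples, against 5.75, 6.0 and 6.19 in luminal samples. That overlap was wide, the log2 difference was 0.18 (SE 0.06, adjusted p = 0.0155), and without parous CD49f-high replicate 2 the adjusted p was 0.0519.

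Total epithelial samples, which hold both lineages, lay between the basal and luminal means in 18 of the 20 called members, Jam2 and Cldn19 being the exceptions.

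**Figure D2:**
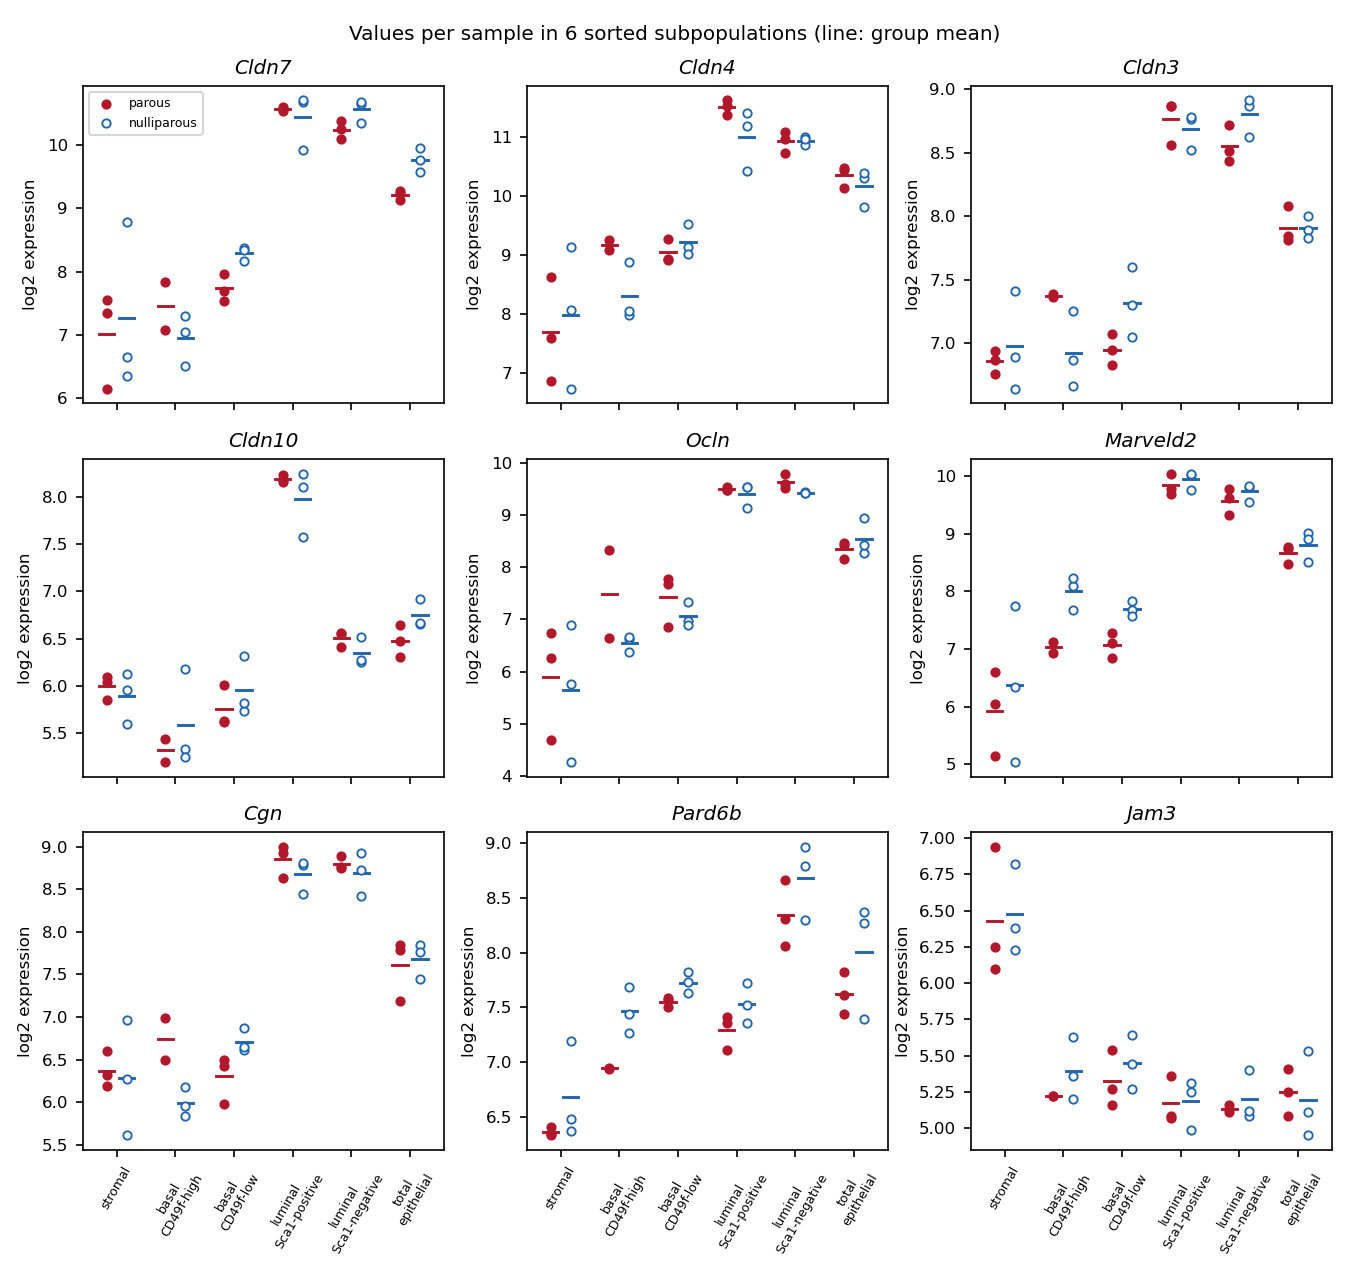
Log2 expression per sample of 9 members in the 6 subpopulations, with parous samples as filled red points to the left of nulliparous samples as open blue points and lines at group means. Cldn3, Cldn4, Cldn7, Ocln, Marveld2 and Cgn stand highest in both luminal sorts, Cldn10 in Sca1-positive and Pard6b in Sca1-negative luminal cells, and Jam3 in stromal cells.

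Within the luminal layer 5 of the 23 claudins differed with Sca1, in either direction. Of the 35 members, 3 rose and 6 fell in Sca1-positive relative to Sca1-negative luminal cells, where 9% of all genes rose and 7.11% fell, 16.1% in all. The 4 measured hormone-sensing markers (Esr1, Pgr, Cited1 and Prom1) averaged 9.16 to 9.60 in Sca1-positive and 7.36 to 8.41 in Sca1-negative samples, and all 4 were called higher in the Sca1-positive cells. Of 4 luminal progenitor markers (Kit, Elf5, Aldh1a3 and Csn3), averaging 6.96 to 7.34 in Sca1-positive and 9.43 to 9.86 in Sca1-negative samples, 3 were called lower.

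Cldn10, whose isoforms form cation or anion channels, had values of 7.58, 8.17 and 8.25 (lowest, median and highest of 6) in Sca1-positive cells, against 6.25, 6.46 and 6.56 in Sca1-negative cells. All 6 Sca1-positive samples were above all Sca1-negative ones, and the gene was 1.66 higher on the log2 scale (SE 0.14, adjusted p = 3.8e-10). Cldn8 had 8.24, 8.96 and 9.55 in Sca1-positive cells, against 6.56, 7.62 and 8.80 in Sca1-negative cells. These ranges overlapped, the 3 highest Sca1-negative samples being the parous ones, and the log2 difference was 1.27 (SE 0.20, adjusted p = 1.5e-05). Cldn6, a claudin of early embryonic epithelia, had 7.26, 7.80 and 7.92 in Sca1-positive cells, against 7.0, 7.25 and 7.63 in Sca1-negative cells, overlapping but called (0.45, SE 0.12, adjusted p = 0.00887).

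Cldn1 ran opposite to Cldn10 and Cldn8. This sealing claudin, which mice need for the water barrier of the skin, had 5.98, 6.76 and 7.79 in Sca1-positive cells, against 8.48, 9.68 and 10.34 in Sca1-negative cells. With no overlap, it was 6.76-fold lower in Sca1-positive cells (log2 difference -2.76, SE 0.33, adjusted p = 2.1e-07). Sca1-positive luminal cells also had the lowest Cldn1 mean of the 6 subpopulations, 6.80, and the Sca1-negative cells the highest, 9.55. The basal minus luminal difference of Cldn1 (-1.05, SE 0.24, adjusted p = 7.4e-04) averages luminal cells that lie on either side of the basal ones.

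Pard6b, Cldn12 and Cgnl1 were also lower in Sca1-positive cells, each without overlap. Pard6b, a core polarity protein, had 7.11, 7.38 and 7.72 in Sca1-positive cells, against 8.06, 8.49 and 8.97 in Sca1-negative cells (log2 difference -1.11, SE 0.15, adjusted p = 2.5e-06). Cldn12, a claudin that lacks the usual binding motif for PDZ scaffolds, had 7.06, 7.32 and 7.53 in Sca1-positive cells, against 7.92, 8.18 and 8.57 in Sca1-negative cells (log2 difference -0.94, SE 0.25, adjusted p = 0.00776). Cgnl1 had 7.54, 7.81 and 8.02 in Sca1-positive cells, against 8.22, 8.46 and 8.79 in Sca1-negative cells (log2 difference -0.69, SE 0.13, adjusted p = 1.3e-04). The remaining falls were small, in Tjp3 (-0.30, SE 0.07) and Pard3 (-0.26, SE 0.09). Of the members with the widest gap between lineages, Cldn3 (0.05, SE 0.12), Cldn4 (0.32, SE 0.27), Cldn7 (0.10, SE 0.27), Ocln (-0.08, SE 0.32) and Cgn (0.02, SE 0.17) were not called between the luminal sorts.

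Between the basal sorts 0 members were called, against 3.54% of all genes (1.05% higher and 2.48% lower in CD49f-high cells), although 7 had an unadjusted p under 0.05 in limma (Cldn2, Cldn6, Cldn7, Cldn10, Jam2, Pard6b and Tjp1), against 18.3% of all genes. The CD49f-high minus CD49f-low differences lay between -0.81 and 0.43 and the lowest adjusted p was 0.0571. The sorts also differ in cells per sample, so cell number and CD49f level cannot be told apart here.

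Stromal cells held the lowest levels of most epithelial members and the highest of Jam3 and Jam2. Relative to total epithelial cells, 16 of the 35 members fell and 5 rose in stromal cells, where 15.6% of all genes fell and 13.6% rose, 29.2% in all. The median difference was -0.31 over the members and 0.02 over all genes. Against basal CD49f-low cells 10 fell and 3 rose, where 14.3% of all genes fell and 12.1% rose, 26.4% in all. Both comparisons use the same stromal samples.

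Jam3, an adhesion molecule that pairs with Jam2, had values of 6.10, 6.32 and 6.94 (lowest, median and highest of 6) in stromal samples, against 4.95, 5.18 and 5.53 in total epithelial samples. All stromal samples were also above all sorted luminal and basal samples. The log2 difference was 1.23 against total epithelium (SE 0.13, adjusted p = 5.7e-09) and 1.07 against basal CD49f-low cells (SE 0.13). All epithelial values of Jam3 lay under 6.0, the median of all gene values, so the size of these differences is less certain than their direction. Jam2 had 7.75, 7.98 and 8.70 in stromal samples, against 6.72, 7.38 and 7.82 in total epithelial samples, overlapping at the edge (log2 difference 0.84, SE 0.19, adjusted p = 7.7e-04). Against basal CD49f-low cells it was 0.63 higher (SE 0.19, adjusted p = 0.0106), and 0.50 higher with an adjusted p of 0.0505 without stromal parous replicate 1.

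Cldn5, the claudin of endothelial tight junctions, had 6.16, 6.39 and 6.62 in stromal samples, against 5.76, 5.94 and 6.14 in total epithelial samples, without overlap (log2 difference 0.46, SE 0.10, adjusted p = 4.8e-04). Against basal CD49f-low cells it was 0.31 higher (SE 0.10, adjusted p = 0.0169), but the adjusted p was 0.0564 without CD49f-low parous replicate 3, 0.0690 without stromal nulliparous replicate 2 and 0.0820 without CD49f-low nulliparous replicate 3. Cldn11, known from myelin and Sertoli cells, had 6.61, 6.68 and 6.90 in stromal samples, against 6.25, 6.32 and 6.41 in total epithelial samples, again without overlap (log2 difference 0.39, SE 0.09, adjusted p = 0.00144). The 8 endothelial markers averaged 6.98 to 8.23 in stromal samples and 5.39 to 6.16 in total epithelial samples, and 6 of the 8 were called higher. Their part in the Jam2, Jam3 and Cldn5 levels was not tested.

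F11r, which encodes the junctional adhesion molecule of epithelia, platelets and leukocytes, had 5.94, 7.38 and 8.12 in stromal samples, against 9.21, 9.30 and 9.68 in total epithelial samples. Every stromal sample lay below every sorted epithelial sample, and the log2 difference was -2.18 against total epithelium (SE 0.16, adjusted p = 6.5e-12) and -2.08 against basal CD49f-low cells (SE 0.16). Ocln had 4.27, 6.02 and 6.90 in stromal samples, against 8.16, 8.43 and 8.94 in total epithelial samples (log2 difference -2.68, SE 0.32). Cldn8 had 4.09, 4.43 and 5.30 in stromal samples, against 6.77, 7.14 and 7.50 in total epithelial samples (log2 difference -2.60, SE 0.20). Stromal and total epithelial samples did not overlap in any of these.

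Marveld2 had 5.04, 6.19 and 7.75 in stromal samples, against 8.48, 8.75 and 9.01 in total epithelial samples (log2 difference -2.58, SE 0.26), and Cldn4 had 6.73, 7.83 and 9.13 in stromal samples, against 9.82, 10.35 and 10.48 in total epithelial samples (log2 difference -2.43, SE 0.27). Stromal samples were all lower in both genes. Against basal CD49f-low cells the differences were smaller and the samples overlapped, at -1.47 for Ocln (SE 0.32), -1.29 for Cldn4 (SE 0.27) and -1.23 for Marveld2 (SE 0.26), all called. Among the stromal samples Cldn4 and Ocln varied in step with the luminal keratins. In stromal parous replicates 1, 2 and 3, Cldn4 read 7.59, 8.63 and 6.87 and Ocln 6.27, 6.75 and 4.70, and the luminal keratins averaged 7.93, 8.57 and 7.22. In stromal nulliparous replicates 1, 2 and 3, Cldn4 read 8.07, 9.13 and 6.73, Ocln 5.76, 6.90 and 4.27, and the luminal keratins 8.20, 9.56 and 7.22. In each history replicate 2 was the highest and replicate 3 the lowest in Cldn4, Ocln and the keratins. F11r was highest in replicate 3 of the parous samples and in replicate 2 of the nulliparous samples, and lowest in replicate 1 of both. The part of luminal cells in the stromal values was not tested.

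With reproductive history few members were called, while the share of all genes called ran from 0.446% to 9.06% across subpopulations. Per subpopulation, limma called 1 member in Sca1-negative luminal cells, against 1% of all genes, 0 in Sca1-positive luminal cells (0.607%), 0 in basal CD49f-low cells (0.968%, of which 0.682% lower), 1 in basal CD49f-high cells (9.06%, of which 4.01% higher), 0 in total epithelial cells (0.446%) and 1 in stromal cells (0.597%, of which 0.492% lower). With no adjustment, p was under 0.05 for 4 members in Sca1-negative (11.4% of all genes), 4 in Sca1-positive (6.63%), 5 in CD49f-low (10.5%), 13 in CD49f-high (22%), 4 in total epithelial (7.26%) and 2 in stromal cells (9.16%). In CD49f-high cells the adjusted share of 9.06% was 2.96% with array weights and 0% with that sort fitted alone. Averaged over the 4 sorted epithelial subpopulations, the parous minus nulliparous difference was called for 4 members, with 3 higher (2.72% of all genes) and 1 lower (3.49%), 6.2% in all. Unadjusted, 9 members had p under 0.05 in that mean, against 17.9% of all genes. The median of that mean difference was -0.002 over the members and -0.002 over all genes. No member's parity difference was called as unequal between luminal and basal cells (2.04% of all genes, 1.34% higher and 0.692% lower). The unadjusted p of that difference was under 0.05 for 3 members (Cldn6, Cldn13 and Cldn16), against 14.3% of all genes.

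Cldn8 was higher after pregnancy. In Sca1-negative luminal cells it read 8.18, 8.40 and 8.80 in parous samples, against 6.88, 6.56 and 7.06 in nulliparous samples. Every parous sample was above every nulliparous one, by 1.63 on the log2 scale on average (SE 0.28, 3.09-fold, adjusted p = 0.00135). In Sca1-positive cells it read 9.55, 9.39 and 9.45 in parous samples, against 8.54, 8.24 and 8.35 in nulliparous samples, without overlap (1.09, SE 0.28, adjusted p = 0.0768).

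In basal CD49f-low cells, where Cldn8 was low, it read 5.96, 5.45 and 5.69 in parous samples, against 4.68, 4.81 and 4.71 in nulliparous samples (0.96, SE 0.28, adjusted p = 0.105). The 2 parous CD49f-high samples, at 6.27 and 4.75, overlapped the nulliparous ones at 5.40, 4.68 and 4.47 (0.66, SE 0.31, adjusted p = 0.208). Total epithelial samples read 7.50, 7.34 and 7.42 when parous, against 6.78, 6.77 and 6.93 when nulliparous, without overlap (0.59, SE 0.28, adjusted p = 0.658). In this fit the Sca1-negative cells passed the test by themselves. With array weights, or with the subpopulation fitted alone, Cldn8 was called in Sca1-positive and in CD49f-low cells too. The mean over the 4 sorted epithelial subpopulations was 1.08 higher (SE 0.14, 2.12-fold, adjusted p = 1.35e-05). All basal values of Cldn8 but 6.27 lay under 6.0, the median of all gene values, so the size of that mean is less certain than its direction. Stromal samples, at 4.24, 5.30 and 4.31 when parous and 4.56, 4.65 and 4.09 when nulliparous, overlapped.

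The parity difference of Cldn8 was not called as unequal among the 6 subpopulations (adjusted p = 0.230). In Sca1-negative cells other markers moved beside it. The 8 basal markers averaged 7.25 to 7.49 in parous and 6.70 to 7.01 in nulliparous Sca1-negative samples, and 3 of the 8 were called higher. The 4 measured hormone-sensing markers, like Cldn8 higher in Sca1-positive cells, averaged 7.80 to 8.41 in parous and 7.36 to 8.01 in nulliparous Sca1-negative samples, and 0 of the 4 were called. The part of these cells in the Cldn8 difference was not tested; within the Sca1-positive sort, the hormone-sensing markers averaged 9.49 to 9.57 in parous and 9.16 to 9.60 in nulliparous samples.

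**Figure D3:**
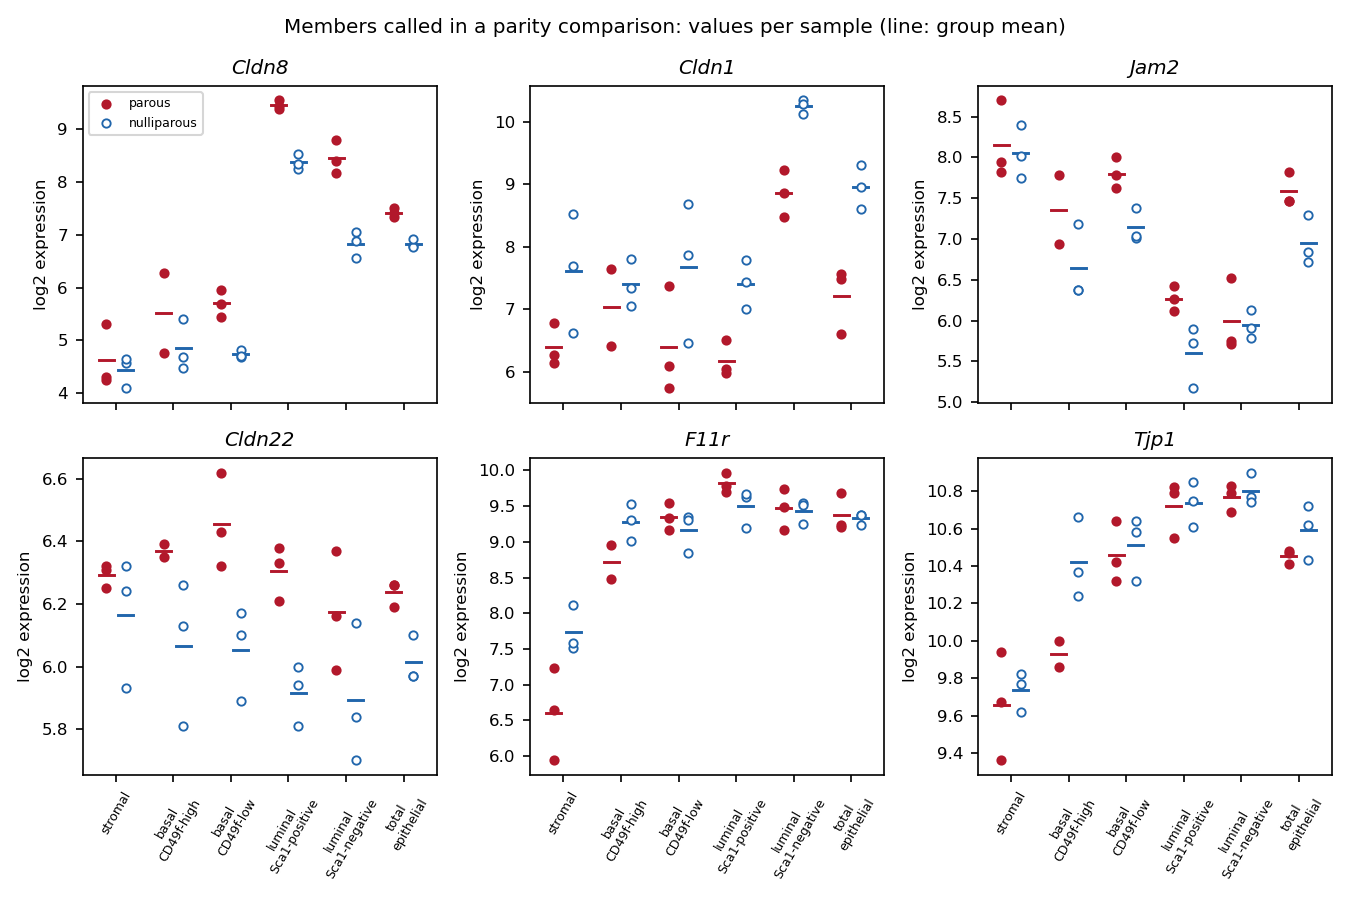
Log2 expression per sample of the 6 members with a called parity difference, by subpopulation, with parous samples as filled red points to the left of nulliparous samples as open blue points and lines at group means. Cldn8 stands higher and Cldn1 lower in parous luminal samples without overlap, and F11r is lower in parous than in nulliparous stromal samples.

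Cldn1 moved in the opposite direction. In Sca1-negative luminal cells, where it was highest, it read 8.86, 9.23 and 8.48 in parous samples, against 10.13, 10.34 and 10.29 in nulliparous samples. In Sca1-positive cells it read 6.05, 6.51 and 5.98 in parous samples, against 7.44, 7.79 and 7.01 in nulliparous samples. Parous samples lay below nulliparous ones in both luminal sorts, with log2 differences of -1.40 (SE 0.46, adjusted p = 0.174) and -1.23 (SE 0.46, adjusted p = 0.480).

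Total epithelial cells gave the largest difference, with Cldn1 at 7.56, 7.49 and 6.60 in parous samples, against 8.60, 9.31 and 8.95 in nulliparous samples (-1.74, SE 0.46, adjusted p = 0.111). Basal CD49f-low cells read 6.09, 7.38 and 5.74 when parous, against 7.87, 8.68 and 6.46 when nulliparous (-1.27, SE 0.46, adjusted p = 0.267). Stromal cells read 6.15, 6.78 and 6.27 when parous, against 7.69, 8.53 and 6.62 when nulliparous (-1.22, SE 0.46, adjusted p = 0.353). Total epithelial samples did not overlap, whereas the basal and stromal ones did.

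In CD49f-high cells Cldn1 was at 7.65 and 6.42 in parous samples, against 7.81, 7.34 and 7.05 in nulliparous samples, also overlapping (-0.37, SE 0.52, adjusted p = 0.751). No subpopulation passed the test in this fit. With the subpopulation fitted alone Cldn1 was called lower in Sca1-negative and in total epithelial cells, and with array weights in CD49f-low and total epithelial cells. The mean over the 4 sorted epithelial subpopulations did, at -1.07 (SE 0.24, 2.09-fold lower, adjusted p = 0.00511). The difference was not called as unequal among subpopulations (adjusted p = 0.814). Beside it, the 4 luminal keratins averaged 10.97 to 11.21 in parous and 11.31 to 11.43 in nulliparous Sca1-negative samples, and 9.16 to 9.32 in parous and 9.59 to 9.86 in nulliparous CD49f-low samples, with 0 of the 4 called in either. In Sca1-positive cells the keratins overlapped (11.64 to 11.73 in parous, 11.60 to 11.81 in nulliparous samples) while Cldn1 did not. The 4 luminal progenitor markers averaged 9.43 to 9.62 in parous and 9.52 to 9.86 in nulliparous Sca1-negative samples. Of these Aldh1a3 was called lower there (-1.22, SE 0.23, adjusted p = 0.0043) and in the mean over the 4 sorts (-0.48, SE 0.12, adjusted p = 0.0142). The part of these markers' cells in the Cldn1 difference was not tested.

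The 130 bases before the Cldn1 start, at chr16:26371840-26371969 on the minus strand of GRCm38.p6 in RefSeq, are shown since Cldn1 was the only claudin called lower with parity in the mean over the 4 sorts, and hold no E-box.
Cldn1: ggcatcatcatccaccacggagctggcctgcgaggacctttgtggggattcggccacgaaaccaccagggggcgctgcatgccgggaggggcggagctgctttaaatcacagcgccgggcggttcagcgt

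Cldn22, a little studied claudin gene next to Cldn24 on chromosome 8, had values close to the median of all genes and a small rise in the mean over the 4 sorts. In Sca1-positive cells it read 6.21, 6.33 and 6.38 in parous samples, against 5.94, 5.81 and 6.0 in nulliparous samples. In CD49f-low cells it read 6.43, 6.32 and 6.62 in parous samples, against 6.17, 5.89 and 6.10 in nulliparous samples. Neither sort overlapped, with log2 differences of 0.39 and 0.40 (SE 0.13 each; adjusted p = 0.323 and 0.169).

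Sca1-negative cells had Cldn22 at 5.99, 6.37 and 6.16 in parous samples, against 6.14, 5.70 and 5.84 in nulliparous samples, overlapping (0.28, SE 0.13, adjusted p = 0.395). CD49f-high cells had 6.39 and 6.35 in parous samples, against 6.26, 6.13 and 5.81 in nulliparous samples, without overlap (0.31, SE 0.14, adjusted p = 0.197). The mean over the 4 sorts was 0.34 higher (SE 0.07, 1.27-fold, adjusted p = 0.00112). Cldn22 was among the 11 claudins not called between subpopulations.

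Jam2 also rose in the mean over the 4 sorts. It read 6.42, 6.26 and 6.12 in parous and 5.17, 5.73 and 5.90 in nulliparous Sca1-positive samples (0.67, SE 0.26, adjusted p = 0.546). In CD49f-low cells it read 7.62, 8.0 and 7.78 in parous samples, against 7.38, 7.01 and 7.04 in nulliparous samples (0.66, SE 0.26, adjusted p = 0.333). Both sorts were higher in parous samples with no overlap.

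In CD49f-high cells Jam2 overlapped, at 7.78 and 6.94 in parous samples, against 7.18, 6.37 and 6.37 in nulliparous samples (0.72, SE 0.29, adjusted p = 0.137). Sca1-negative samples read 6.52, 5.71 and 5.75 when parous, against 6.13, 5.91 and 5.79 when nulliparous (0.05, SE 0.26). The mean over the 4 sorts was 0.52 higher (SE 0.14, 1.44-fold, adjusted p = 0.0173), with an adjusted p of 0.0708 without parous CD49f-high replicate 2 and 0.117 with the CD49f-high sort left out of the mean. Endothelial markers averaged 5.85 to 6.30 in parous and 5.26 to 5.69 in nulliparous Sca1-positive samples, and 5.99 to 6.36 in parous and 5.80 to 6.67 in nulliparous CD49f-low samples, with 0 of the 8 called in either. Fibroblast markers, like Jam2 high in stromal cells, averaged 6.68 to 6.96 in parous and 7.38 to 7.65 in nulliparous CD49f-low samples, the opposite direction to Jam2. Basal markers, like Jam2 higher in basal than in luminal cells, averaged 6.39 to 6.63 in parous and 6.04 to 6.48 in nulliparous Sca1-positive samples, with Krt14 called higher of 8 (1.54, SE 0.22). In the mean over the 4 sorts 4 of the 8 were called higher, among them Cnn1 (0.60, SE 0.10). The part of other cells in the Jam2 difference was not tested.

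F11r was the member whose parity difference was called as unequal among subpopulations (F test adjusted p = 0.0443, 2.8% of all genes called). That call was lost in 27 of the 35 fits that left out 1 sample, with an adjusted p of up to 0.134, and the samples concerned came from all 6 subpopulations. In stromal cells it read 5.94, 6.65 and 7.24 in parous samples, against 7.52, 8.12 and 7.58 in nulliparous samples. All parous samples were lower, by 1.13 on the log2 scale (SE 0.23, 2.18-fold, adjusted p = 0.0119). In the other sorts the parous minus nulliparous difference was 0.03 in Sca1-negative, 0.32 in Sca1-positive, 0.18 in CD49f-low, -0.56 in CD49f-high and 0.05 in total epithelial cells, none called.

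That stromal result rests on few samples. Without stromal parous replicate 1 the F11r difference was -0.79 (adjusted p = 0.132), and without stromal nulliparous replicate 2 it was -0.94 (adjusted p = 0.114). Basal markers were lower in the same samples: their mean was 7.33, 7.30 and 7.17 in parous stromal replicates 1, 2 and 3, against 7.84, 7.89 and 7.89 in nulliparous ones, and 2 of the 8 were called lower, Krt5 by 1.85 and Krt14 by 2.00 on the log2 scale. Endothelial markers averaged 7.31, 6.98 and 7.05 in parous stromal samples, against 8.23, 7.68 and 7.53 in nulliparous ones, with Pecam1 (-1.55, SE 0.36) called of 8. Luminal keratins overlapped, at 7.22 to 8.57 in parous and 7.22 to 9.56 in nulliparous stromal samples. Their part in the F11r difference was not tested.

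The stretch before the F11r start, chr1:171437431-171437560 on the plus strand of GRCm38.p6 in RefSeq, is shown because F11r is the member called with parity in stromal cells. It holds 1 E-box (capitals), whose first base lies 122 bases before the start.
F11r: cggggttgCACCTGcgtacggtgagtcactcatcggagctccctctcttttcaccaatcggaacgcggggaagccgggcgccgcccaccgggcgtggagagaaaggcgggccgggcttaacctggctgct

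Tjp1, the scaffold also called ZO-1, was lower in parous CD49f-high cells. It read 10.00 and 9.86 in the 2 parous samples, against 10.37, 10.66 and 10.24 in the nulliparous samples, without overlap (log2 difference -0.50, SE 0.14, 1.41-fold lower, adjusted p = 0.0229). In this sort 5.05% of all genes were called lower. Without parous CD49f-high replicate 3 the adjusted p was 0.156, and without nulliparous replicate 2 it was 0.134 with a difference of -0.38. In the other 5 subpopulations the Tjp1 difference was between -0.14 and -0.01, and its variation among subpopulations was not called (adjusted p = 0.526). Cell type markers also differed between the same CD49f-high samples. Of the 8 basal markers 3 were called higher in parous samples, led by Oxtr (1.43, SE 0.25), and so were Krt7 (1.27, SE 0.39) of 4 luminal keratins and Cd68 (1.20, SE 0.29) of 5 myeloid markers. Sox10, the 1 measured gene of a Schwann cell list, was called higher too (0.95, SE 0.15). It read 6.72 to 7.24 in stromal samples and 7.43 to 8.51 in CD49f-high samples, so it is not taken as a Schwann cell marker here. Emcn (-2.36, SE 0.74) of 8 endothelial markers and Prom1 (-1.04, SE 0.29) of 4 hormone-sensing markers were called lower. Their part in the Tjp1 difference was not tested.

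**Figure D4:**
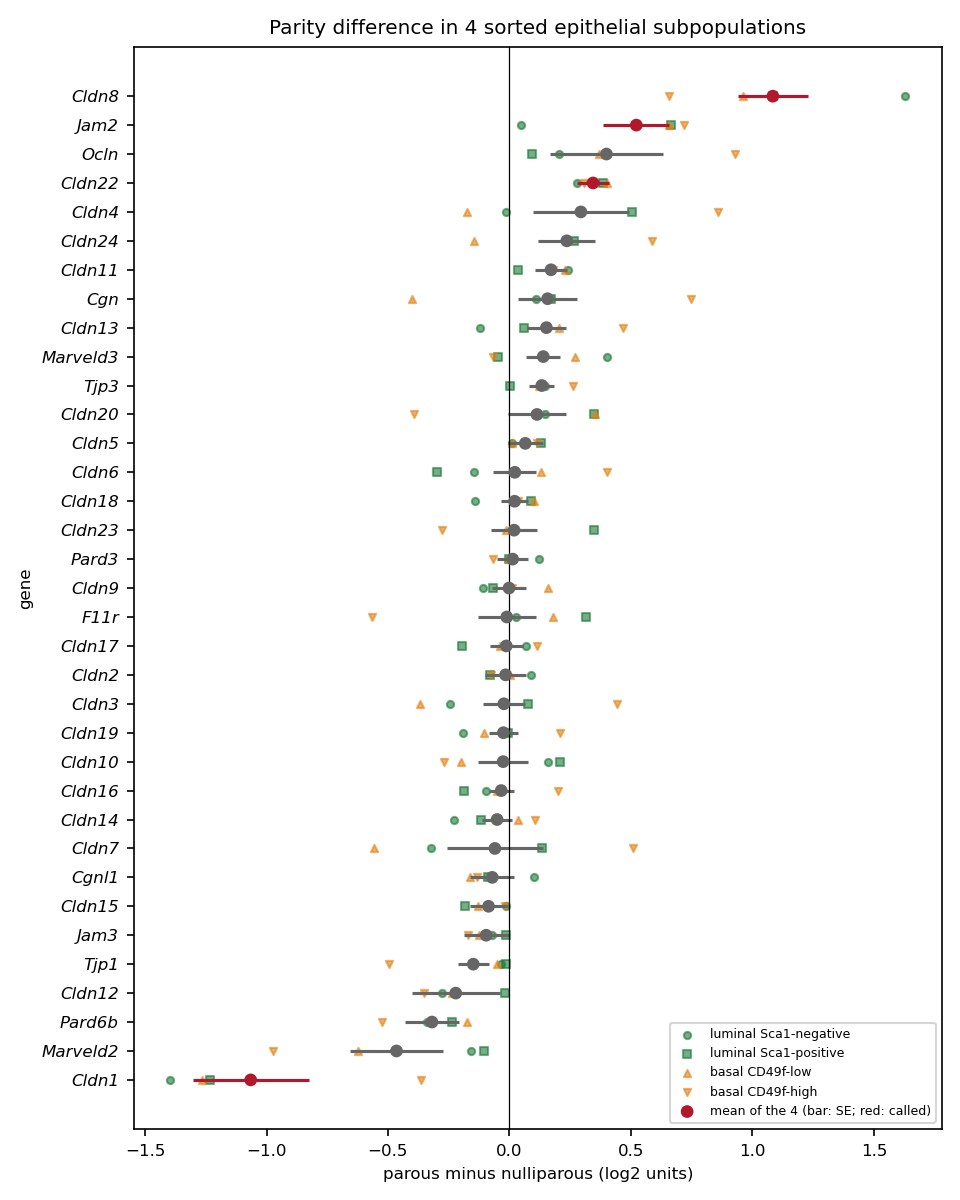
Parous minus nulliparous log2 difference of every member: the mean over the 4 sorted epithelial subpopulations with its SE as a bar, red where called, and the value of each of the 4 subpopulations as a small symbol. Cldn8, Jam2 and Cldn22 are called higher and Cldn1 lower, and most other means lie near 0.

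Most genes that separated basal from luminal cells were not called with parity. Averaged over the 4 sorts, the parity difference was -0.02 for Cldn3 (SE 0.09), 0.29 for Cldn4 (SE 0.20), 0.16 for Cgn (SE 0.12), 0.40 for Ocln (SE 0.23, adjusted p = 0.393) and -0.47 for Marveld2 (SE 0.19, adjusted p = 0.171). In CD49f-high cells, with 2 parous samples, wider values were not called either: Ocln was at 0.93 (SE 0.50), Cldn4 at 0.86 (SE 0.43), Cgn at 0.75 (SE 0.26, adjusted p = 0.0710) and Marveld2 at -0.97 (SE 0.41).

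Counting samples alone, parous and nulliparous groups did not overlap for 5 members in Sca1-negative cells (17.7% of all genes), 7 in Sca1-positive cells (12.9%), 11 in CD49f-low cells (14.3%), 11 in CD49f-high cells (27.7%), 11 in total epithelial cells (15%) and 2 in stromal cells (15.9%). Cldn8 and Cldn22 were above without overlap in 4 of the 6 subpopulations each, Jam2 above in 3 and Cldn1 below in 3. The share of all genes that did so in as many subpopulations was not counted, so these numbers are not read as unusual.

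Genes of the neighbouring junction systems give the setting, beside 15.5% of all genes that rose and 19.5% that fell in basal relative to luminal cells. Of 25 measured other tight junction and polarity genes, 8 rose and 11 fell in basal relative to luminal cells. Of 12 adherens junction genes, 3 rose and 6 fell. Cdh3, the P-cadherin of myoepithelium, was 3.51 higher in basal cells (SE 0.08), whereas Cdh1, the E-cadherin of luminal cells, was 1.15 lower on the log2 scale (log2 difference -1.15, SE 0.18). Of 9 desmosome genes, 5 rose, among them Perp (1.11, SE 0.09), and 3 fell, Pkp2 (-3.05, SE 0.19), Dsc2 (-2.55, SE 0.12) and Dsg2 (-1.52, SE 0.14).

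Regulators of the epithelial state also differed between the sorts. Of 10 epithelial regulators, 1 rose and 5 fell in basal relative to luminal cells (15.5% and 19.5% of all genes), with Grhl1 at -1.67 (SE 0.10) and Elf3 at -1.13 (SE 0.12). Of 6 genes known to drive epithelial to mesenchymal transition, 3 rose and 0 fell, led by Snai2. In stromal relative to total epithelial cells, 8 of the 10 epithelial regulators fell, led by Esrp1 (-3.50, SE 0.23) and Grhl2 (-3.06, SE 0.13), and 5 of the 6 transition genes rose, led by Zeb1 (3.94, SE 0.17), where 15.6% of all genes fell and 13.6% rose. The sixth, Snai2, fell in stromal cells (-0.97, SE 0.23, adjusted p = 0.0012), where Cldn4, Ocln and Marveld2 were lower too. The part of Snai2 or the other regulators in the levels of the members was not tested.

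With parity, 1 of the 25 other tight junction and polarity genes was called in the mean over the 4 sorts, where 6.2% of all genes were called. It was the Coxsackie and adenovirus receptor Cxadr, a tight junction adhesion molecule (-0.45, SE 0.11). Of the 12 adherens junction genes 1 was called in that mean, Cdh3 at 0.29 (SE 0.08). Of the 9 desmosome genes, 4 fell in that mean and 0 rose, with Dsc2 at -1.03 (SE 0.12, adjusted p = 1.7e-06) and Dsc3 at -0.76 (SE 0.21), where 3.49% of all genes fell. By sort, 5 of the 9 fell in CD49f-high cells, where 5.05% of all genes fell, with Dsg3 at -2.28 (SE 0.58), Dsc3 at -1.77 (SE 0.45) and Dsc2 at -1.69 (SE 0.25). That sort has 2 parous samples and the widest spread within groups. In the other sorts 1 fell in CD49f-low cells (0.682% of all genes), 1 in Sca1-negative cells (0.341%) and 0 in Sca1-positive cells (0.181%). In parous stromal cells 4 of the 9 fell, where 0.492% of all genes fell, with Dsg2 at -1.71 (SE 0.26), in the same samples in which F11r and the basal keratins were lower.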

How the data were processed

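Expression had been measured in 35 samples of 12 groups, by array from RNA amplified with a whole-transcriptome kit, per the labels' protocols. The authors deposited log2 values per probe set. Affy is named as software in the submitters' processing notes, while normalization method, software version and genome build were not given in the sources used here. Column medians were near equal, from 5.813 to 5.924. Of 34760 probe sets, 21640 carry 1 gene symbol in the supplied annotation, 1321 several and 11799 none; only the first were used, with the probe set of highest mean per gene, which left 19937 genes.

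A single model of 12 group means took in every sample, in limma 3.58.1 (R 4.3.3; lmFit and eBayes with trend = TRUE), with no covariate. P-values were adjusted by Benjamini-Hochberg over all genes and called under 0.05. SE is the fit's standard error. The fit was tested on simulated data. Alternatives were no trend, array weights, quantile normalization, dim genes left out, all probe sets averaged, the replicate number as a block, pools as a random block, each subpopulation alone and each sample left out. The number of arrays limits the precision.

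The members and lists were chosen with earlier results of these data known. Every member was accounted for; values per sample are given for members called with parity and, per subpopulation comparison, for up to 4 called members with the largest rise and 4 with the largest fall, with Cldn3 and Cldn4 and others of the basal and luminal comparison added after their values were seen. Promoter sequences are RefSeq's (GRCm38.p6, 28 of 35 members matched).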

Additional observations from a re-analysis of the deposited data

Results flagged for a closer look

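The parous minus nulliparous difference of F11r differed among the 6 subpopulations in limma's moderated F test (adjusted p = 0.0443 after Benjamini-Hochberg adjustment). It was -1.13 in stromal cells (SE 0.23), where all 3 parous samples lay below all 3 nulliparous ones, -0.56 in basal CD49f-high cells (SE 0.26), and between 0.03 and 0.32 in the other 4. With each sample left out in turn the adjusted p of the F test was between 0.00528 and 0.134, and the call was lost in 27 of 35 cases. Its highest value came without stromal nulliparous replicate 2, and without stromal parous replicate 1 it was 0.108.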

How the results depend on the processing

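Over the alternatives that did not leave out single samples, the 36 named changes kept their call in 255 of 259 cases, and 0 reversed. All 36 had been picked as called in the main fit, and the F test of F11r among them has no direction. The 15 counts of called members stayed within 1.5 times in 92 of 112 cases and moved further in 20. Both tallies include the averaging of all probe sets, which left the members' own values unchanged because each has 1 probe set. The numbers of members called with parity were the least stable. With array weights they were 2 in Sca1-negative cells (against 1, Marveld3 gained), 1 in Sca1-positive cells (against 0, Cldn8), 3 in CD49f-low cells (against 0, Cldn1, Cldn8 and Cldn22), 0 in CD49f-high cells (against 1) and 1 in total epithelial cells (against 0, Cldn1), and 2 members passed the F test of parity among subpopulations (against 1, Cldn8 gained). With each subpopulation fitted alone they were 2 in Sca1-negative (Cldn1 gained), 1 in Sca1-positive (Cldn8), 1 in CD49f-low (Cldn8), 0 in CD49f-high, 1 in total epithelial (Cldn1) and 0 in stromal cells. With dim genes left out they were 2 in CD49f-high cells (Cgn gained). The cause of these shifts was not tested, apart from the fewer samples or genes that the last 2 settings hold by construction.

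With the replicate number as a block, 2 members were called in Sca1-negative cells (Cldn1 gained), 1 in CD49f-low (Cldn1), 3 in CD49f-high (F11r and Jam2 gained) and 1 in total epithelial cells (Cldn1). Same-numbered samples of a history, in other subpopulations, had deviations correlated at 0.012 to 0.338 (85 pairs, 43 over 0.1), against -0.282 to 0.072 in 170 pairs of other numbers, and 35 of 35 samples correlated best with their own number, as a hint from the data. Cldn1 was highest in replicate 2 in 5 of 6 parous and 5 of 6 nulliparous groups. The setting with pools as a random block used a single correlation, 0.07, for all genes, which need not hold for Cldn1. Between CD49f-high and CD49f-low cells, 2 members were called (against 0) with dim genes left out (Cldn6 and Tjp1), with the replicate block (Cldn10 and Tjp1) and with pools as a random block (Cldn6 and Tjp1).

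Leaving out each sample in turn gave 0 to 1 members in CD49f-low (1 without nulliparous replicate 3, Cldn1), 0 to 3 in CD49f-high (Cldn8, Cldn12 and Jam2 without parous replicate 3, where the lone parous sample is assumed to vary like the other groups), 0 to 1 in stromal cells, 0 to 2 for parity in luminal against basal cells (Cldn8 and Cldn12 without parous CD49f-high replicate 2), 0 to 2 between the CD49f sorts, and 0 to 3 in the F test of parity. Under quantile normalization 4 members rose and 18 fell between basal and luminal cells.

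Tjp1 in CD49f-high cells had an adjusted p of 0.191 with array weights and 0.392 with that sort alone, and F11r in stromal cells 0.345 with that sort alone. Jam2 in the mean over the sorts had 0.117 without the CD49f-high sort, an alternative chosen after seeing the data. Cldn8, Cldn1 and Cldn22 in that mean kept their calls under every alternative run, with adjusted p up to 7.6e-05 for Cldn8, 0.0247 for Cldn1 and 0.00547 for Cldn22.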
